A study of Homo sapiens with 4 samples.

Results

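The miR-15/16 family, with miR-424, miR-497 and their relatives, was examined in small RNA that a pull-down recovered from the gastric cancer cell lines HGC27 and AGS. The members were chosen by name, as the mature microRNAs (miRNAs) hsa-miR-15a-5p, hsa-miR-15b-5p, hsa-miR-16-5p, hsa-miR-195-5p, hsa-miR-424-5p, hsa-miR-424-3p, hsa-miR-497-5p and hsa-miR-503-5p (written below without the prefix), and all 8 were found among the 843 distinct miRNAs of the count table. Both lines carried a lentivirus for stable overexpression of the untranslated 3′ end (3′-UTR) of FN1, which encodes fibronectin, so every group had it. Lysates were mixed with biotinylated RNA probes on streptavidin beads, and after washing the bead-bound small RNA was sequenced. The 4 groups were HGC27 with the negative probe, HGC27 with the positive probe, AGS with the negative probe and AGS with the positive probe, with 1 library each. Antisense RNA is named for the beads in the study methods, without saying whether it was the positive or the negative probe, so no binding to either strand is inferred from the values below. There were no replicates, so differences within a line have no test, and the intervals given cover counting error only.

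miRNAs are short RNAs that are cut from hairpin precursors and guide Argonaute proteins to messenger RNAs, mainly through bases 2 to 8 at their 5′ end, the seed. A hairpin can yield a miRNA from either side, named the 5p and the 3p arm. The miR-15/16 family is known for restraining the cell cycle and survival through targets such as BCL2 and cyclins, and the loss of miR-15a and miR-16-1 is a classic lesion of chronic lymphocytic leukaemia. miR-424 and miR-503 come from the X chromosome, where they are transcribed with miR-450 and miR-542, and miR-195 and miR-497 form a further pair.

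The mature sequences are shown because the seed defines the family. Each is written 5′ to 3′ as deposited, was identical to the RefSeq entry, and has the seed in capitals.
miR-15a-5p: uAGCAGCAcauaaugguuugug
miR-15b-5p: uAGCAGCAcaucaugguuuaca
miR-16-5p: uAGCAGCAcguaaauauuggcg
miR-195-5p: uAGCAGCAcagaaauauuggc
miR-424-5p: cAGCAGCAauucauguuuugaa
miR-497-5p: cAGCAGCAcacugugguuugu
miR-503-5p: uAGCAGCGggaacaguucugcag
miR-424-3p: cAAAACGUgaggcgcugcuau
The first 6 shared the seed AGCAGCA. miR-503-5p had the seed AGCAGCG, so the 7 members from 5p arms did not all share one seed, and miR-424-3p had an unrelated one. In the whole table, 9 entries carried AGCAGCA at bases 2 to 8: the 6 above, miR-6838-5p and 2 predicted entries described below.

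The loci were taken from RefSeq (GRCh38.p14), with genes from GENCODE 29. miR-15a-5p lies at chr13:50049167-50049188 and a copy of miR-16-5p at chr13:50049027-50049048, both on the minus strand and in an intron of DLEU2, with 57 bases between the hairpins. miR-15b-5p lies at chr3:160404607-160404628 and the other copy of miR-16-5p at chr3:160404754-160404775, both on the plus strand and in an intron of SMC4, with 59 bases between the hairpins. miR-195-5p, at chr17:7017667-7017687, and miR-497-5p, at chr17:7017979-7017999, are on the minus strand, and both hairpins overlap an exon of the noncoding gene MIR497HG. On the X chromosome, miR-424-5p lies at chrX:134546680-134546701, miR-424-3p at chrX:134546644-134546664 and miR-503-5p at chrX:134546371-134546393, all on the minus strand within MIR503HG. Reads of miR-16-5p cannot be assigned to chromosome 3 or chromosome 13, since the mature sequences are identical.

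The tables held 1296853 to 2955078 miRNA counts per library. AGS was dominated by miR-372-3p, with 80.8% of the counts at the negative probe and 37.5% at the positive probe, and HGC27 by miR-148a-3p, with 50.6% and 35.0%. Such dominant miRNAs move the share left for all others, so ratios between libraries depend on the scaling, whereas shares of one miRNA against another within a library do not. Of 6 epithelial marker miRNAs, 5 or 6 were listed in each library, with a summed level of 371.7 to 780.3 TPM in HGC27 and 820.3 to 10290 in AGS (TPM are tags scaled to 1000000 by the deposited normalization). miR-141-3p, a defining member, was not listed in either HGC27 library or with the positive probe in AGS. The 5 mesenchymal markers summed to 3522 and 3616 TPM in HGC27 and to 11.3 and 38.9 in AGS. Of 7 blood cell markers, 1 or 2 were listed in each library, on at most 28 counts, and miR-451a, miR-142-3p, miR-223-3p and miR-150-5p had none. The part of these markers in the results was not tested. In bulk material, fewer cells with a miRNA and less of it per cell cannot be told apart.

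The family was a minor component of every library. The 7 members from 5p arms made up 0.124% of the counts in HGC27 with the negative probe (exact 95% CI 0.118 to 0.129), on 1795 counts, and 0.0255% with the positive probe (0.0229 to 0.0284), on 331 counts. In AGS they made up 0.0192% with the negative probe (0.0176 to 0.0208), on 566 counts, and 0.000524% with the positive probe (0.000226 to 0.00103), on 8 counts. Of the AGS counts other than miR-372-3p, the shares were 0.0999% and 0.000838%. The share was therefore lower with the positive probe in both lines, and the AGS positive probe library held almost none of the family. All 8 members were listed in HGC27 with the negative probe, 6 with the positive probe, 5 in AGS with the negative probe and 3 with the positive probe.

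**Figure D1:**
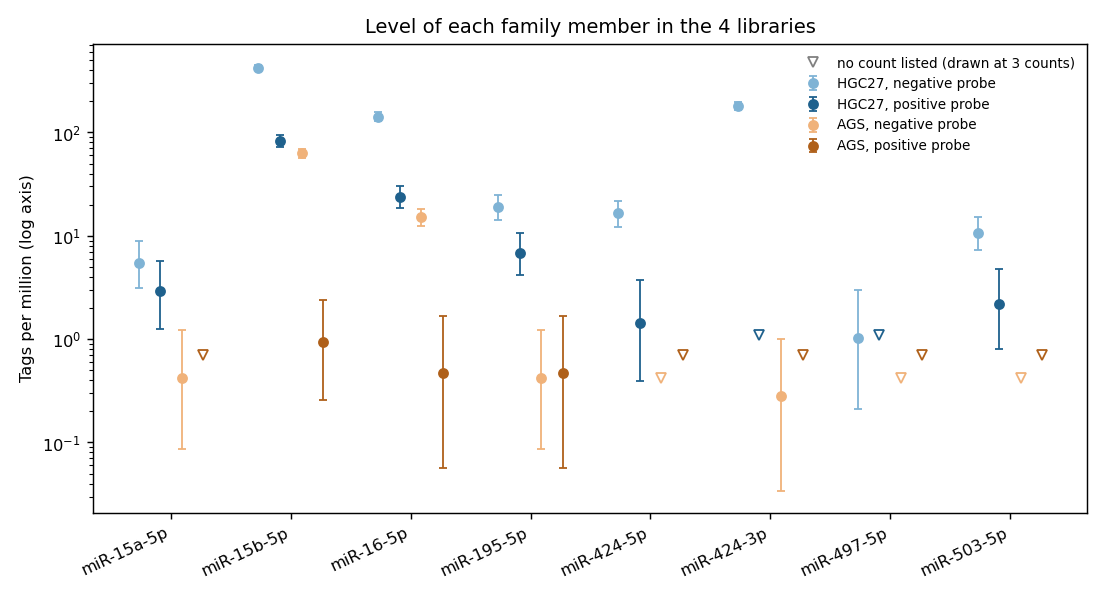
Level of each member in TPM (log axis) in the 4 libraries, from the counts and the authors' deposited scaling. Bars are exact 95% Poisson intervals, and open triangles mark members without a listed count, drawn at 3 counts. miR-15b-5p had the highest point among the 5p members in each library, and 5 of the 8 members have triangles for AGS with the positive probe.

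miR-15b-5p was the most abundant 5p member. It had 1228 counts in HGC27 with the negative probe and 228 with the positive probe, and 451 and 4 in AGS in the same order. miR-16-5p, often the most abundant member of the family in human tissues, came next, with 414 and 66 counts in HGC27 and 109 and 2 in AGS. By the deposited values both miRNAs were highest in HGC27 with the negative probe, an order that turned for miR-15b-5p against AGS under TMM and DESeq2 size factors, as given below. Both were close to absent in AGS with the positive probe. The balance of these neighbours within a library moved little. miR-15b-5p made up 74.8% of their joint counts in HGC27 with the negative probe (exact 95% CI 72.6 to 76.9), 77.6% with the positive probe (72.4 to 82.2) and 80.5% in AGS with the negative probe (77.0 to 83.7). The first and the last of these intervals do not overlap, and the 6 counts of AGS with the positive probe were too few to place (4 were miR-15b-5p). Within the 5p family counts, miR-15b-5p made up 68.4% in HGC27 with the negative probe (66.2 to 70.6) and 68.9% with the positive probe (63.6 to 73.8), and miR-16-5p 23.1% (21.1 to 25.1) and 19.9% (15.8 to 24.7). The composition of the family in HGC27 was thus dominated by these members with either probe, with overlapping intervals.

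miR-15a-5p, which shares its transcript with a copy of miR-16-5p, was far lower. It had 16 and 8 counts in HGC27, 3 in AGS with the negative probe and none listed with the positive probe. miR-195-5p, of the pair on chromosome 17, had 55 and 19 counts in HGC27 and 3 and 2 in AGS. Both were thus at or below 3 counts in AGS, where neither a level nor a change could be resolved.

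The members from the X chromosome were present in HGC27 and nearly missing from AGS. miR-424-5p had 48 counts in HGC27 with the negative probe and 4 with the positive probe, and miR-503-5p had 31 and 6. Neither was listed in AGS, where a count of 0 allows up to 0.418 TPM with the negative probe and 0.702 with the positive probe (3 counts per library). miR-424-3p, the other arm of the miR-424 hairpin, had 520 counts in HGC27 with the negative probe, second among the 8 members in that library, and none with the positive probe. In AGS it had 2 counts with the negative probe and none with the positive probe.

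miR-497-5p was almost absent under its own name, with 3 counts in HGC27 with the negative probe and none in the other libraries. A pair of predicted entries on chromosome 17 held the same sequence with 1 more base at the 3′ end, and this longer form also lies within the RefSeq hairpin of MIR497. The forms are shown because the counts depend on which is read as the miRNA.
miR-497-5p: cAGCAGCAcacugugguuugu
predicted longer form: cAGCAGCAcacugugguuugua
Since the predicted entries were identical in sequence and counts, they were used once. The longer form had 41 counts in HGC27 with the negative probe and 29 with the positive probe, and none in AGS. It made up 93.2% of the reads of both forms with the negative probe (exact 95% CI 81.3 to 98.6) and all 29 with the positive probe (lower bound 88.1). With both forms joined, miR-497-5p had 44 and 29 counts in HGC27, against 55 and 19 for its neighbour miR-195-5p. It thus made up 44.4% of the pair with the negative probe (exact 95% CI 34.5 to 54.8) and 60.4% with the positive probe (45.3 to 74.2), and these intervals overlap.

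The comparison of the probes asks which miRNAs were recovered more or less with the positive probe. For this comparison the ratio was the deposited TPM + 1 with the positive probe over the same with the negative probe, and a ratio of at least 2 or at most 0.5 was called higher or lower. In HGC27, 7 of the 8 members were lower and 0 were higher, where 34.0% of all 755 listed miRNAs were lower and 37.5% higher. The median log2 ratio of the members was -2.17, against 0.00 over all listed miRNAs. With a minimum of 10 counts in either library, 6 of 7 members were lower, where 33.3% of 366 miRNAs were lower. In AGS, 5 members were listed and 2 of them, miR-15b-5p and miR-16-5p, were lower and 0 higher, where 22.7% of 459 miRNAs were lower and 39.4% higher. These were also the only members there with 10 or more counts, where 31.3% of 230 miRNAs were lower. The other 3 had at most 3 counts in either library.

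miR-424-3p had a log2 ratio of -7.49 in HGC27, the lowest among the 366 miRNAs that reached 10 counts with a pseudocount of 1. With a pseudocount of 10, a check of the rank chosen after seeing the data, it was -4.24 and the third lowest. Setting 3 counts in place of 0, it was 165-fold lower with the positive probe, and the exact 95% lower bound was 133.5-fold. miR-424-5p was 11.4-fold lower in the counts (exact 95% CI 4.18 to 43.6), and miR-503-5p was 4.91-fold lower (2.02 to 14.4). The intervals of the 3 members from the X chromosome excluded equal levels, but the share of all miRNAs with such intervals is not given. Neighbours in their cluster went both ways, with miR-542-3p 7.22-fold lower (4.61 to 11.8) and miR-450b-5p 1.81-fold higher (1.24 to 2.66).

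miR-15b-5p was 5.12-fold lower with the positive probe in HGC27 (exact 95% CI 4.44 to 5.92) and 67.1-fold lower in AGS (26.0 to 247). miR-16-5p was 5.96-fold lower in HGC27 (4.59 to 7.86) and 32.4-fold lower in AGS (8.77 to 271). The AGS log2 ratio depended on the scaling, at -5.0 for miR-15b-5p and -4.0 for miR-16-5p by the deposited values, -6.48 and -5.19 under TMM, and -7.26 and -5.97 with totals without miR-372-3p. For both miRNAs the intervals of the lines do not overlap, but the difference between the lines was not tested, as each line had 1 library per probe. miR-195-5p was 2.75-fold lower in HGC27 (1.61 to 4.91). For miR-15a-5p the interval included equal levels, at 1.901-fold lower (0.768 to 5.13).

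The named miR-497-5p was called lower in HGC27 on 3 counts against none. The longer form was not called, at 1.34-fold lower in the counts (exact 95% CI 0.815 to 2.24), and with both forms joined the log2 ratio was -0.42. Joining them, a choice made after its values were seen, left 6 of 8 members lower in HGC27.

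**Figure D2:**
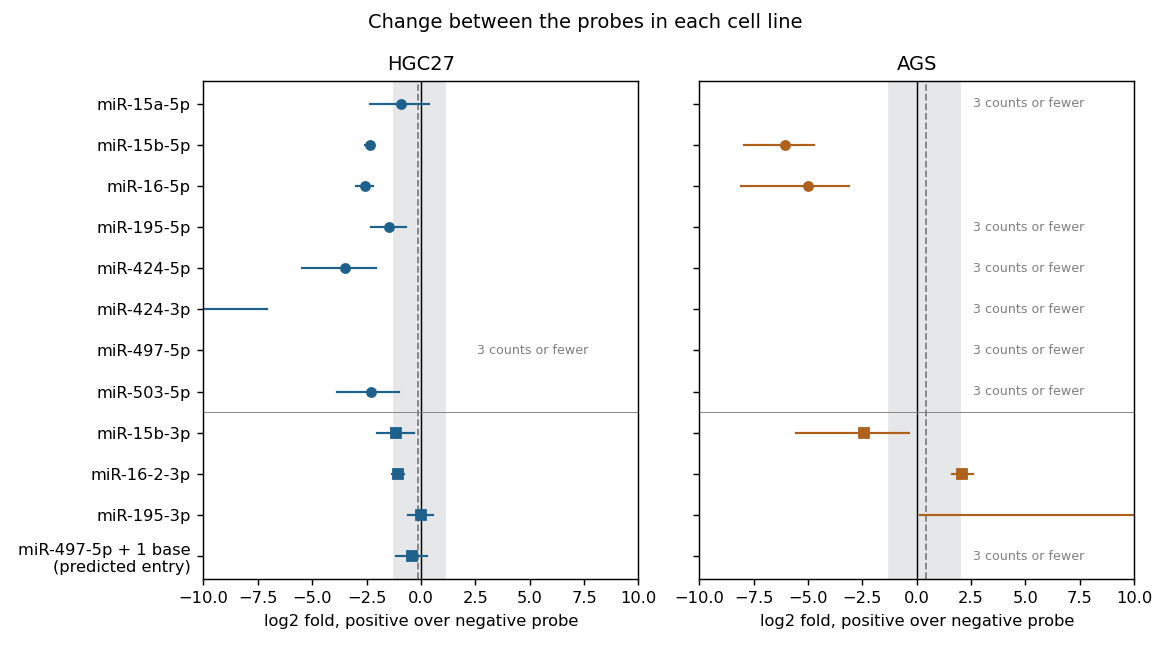
log2 fold of the counts, positive over negative probe, in HGC27 (left) and AGS (right) for the 8 members (circles), 3 opposite arms and the longer form of miR-497-5p (squares). Bars are exact 95% intervals for counting error and those reaching an edge are unbounded on that side, the grey band runs from the lower to the upper quartile of all miRNAs with at least 10 counts, and the dashed line is their median. In HGC27 the points of miR-15b-5p, miR-16-5p, miR-195-5p, miR-424-5p and miR-503-5p and the interval of miR-424-3p lie left of the band, and in AGS miR-16-2-3p lies to the right of 0.

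The 4 libraries were also fitted together, with terms for line and probe, so that the 2 lines took the place of replicates. edgeR's quasi-likelihood test covered 3 of the 8 members. The other 5 did not pass its filter on low counts. miR-15b-5p fell by 4.36 on the log2 scale (SE 1.42, adjusted p = 0.039 in edgeR) and miR-16-5p fell by 3.82 (SE 1.26, adjusted p = 0.0438 in edgeR), each lower with the positive probe in 2 of 2 lines. For miR-195-5p the estimate was -1.13 (SE 1.07), which did not pass (adjusted p = 0.578 in edgeR). Of all 271 miRNAs tested, 7.01% were called and 2.95% were called lower. The test left 1 residual degree of freedom, and both calls were lost with library totals in place of TMM scaling, at an adjusted p of 0.0886 for miR-15b-5p and 0.129 for miR-16-5p in edgeR. Over all the alternatives the adjusted p ranged from 0.00219 to 0.652 for miR-15b-5p and from 0.019 to 0.611 for miR-16-5p.

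The opposite arms of the same hairpins did not follow their 5p partners in the same way. They are shown with bases 2 to 8 in capitals, because miR-16-2-3p and miR-195-3p share these bases.
miR-15b-3p: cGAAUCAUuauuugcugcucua
miR-16-2-3p: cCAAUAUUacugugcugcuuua
miR-195-3p: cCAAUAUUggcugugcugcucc
miR-16-2-3p had 366 and 167 counts in HGC27 and 50 and 126 in AGS, for the negative and positive probe. It was 2.08-fold lower with the positive probe in HGC27 (exact 95% CI 1.73 to 2.52), and in AGS it was 4.23-fold higher (3.03 to 5.999). miR-195-3p had 53 and 50 counts in HGC27, a log2 ratio of 0.00, and 0 and 4 in AGS. miR-15b-3p had 44 and 19 counts in HGC27 and 18 and 2 in AGS, so that it was lower with the positive probe in both lines, as miR-15b-5p was.

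The share of the 5p arm in the counts of both arms needs no scaling between libraries. For the miR-16-2 hairpin, to which all reads of miR-16-5p were assigned here, the 5p arm made up 53.1% in HGC27 with the negative probe (exact 95% CI 49.5 to 56.6) and 28.3% with the positive probe (22.6 to 34.6). In AGS it made up 68.6% with the negative probe (60.7 to 75.7) and 1.56% with the positive probe (0.19 to 5.53). The arm balance thus moved toward the 3p arm in both lines. Of the 74 hairpins in AGS with at least 10 counts of both arms together in each library, that of miR-16-2 had the third most negative shift of the 5p to 3p ratio, at -6.78 on the log2 scale, while the median shift was 0.30. The 5p share fell in 44.6% of these hairpins. In HGC27 the shift of miR-16-2 was -1.51, that of miR-195 was -1.43 and that of miR-15b was -1.24, which placed them at 29, 31 and 32 from the lowest of 95 hairpins with a median of -0.01. In HGC27, the shifts of the 3 family hairpins were thus within the lower part of a wide background, in which 50.5% of hairpins moved the same way.

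In the miR-424 hairpin of HGC27 the 5p share differed between the probes, on only 4 counts with the positive probe. In HGC27 with the negative probe the 5p arm made up 8.45% of 568 counts (exact 95% CI 6.30 to 11.1), so the 3p arm was the main product. Of the 99 hairpins with at least 10 counts in that library, 32, itself included, had a 5p share this low or lower, and the median was 60.0%. With the positive probe all 4 counts came from the 5p arm (lower bound 39.8), so the intervals of the probes do not overlap. The larger arm with the positive probe was not resolved, since that interval includes equal counts of both arms. These 4 counts are also below the minimum of 10 used for the other hairpins. In AGS only 2 counts were listed, both of the 3p arm with the negative probe, and the arm balance could not be resolved.

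**Figure D3:**
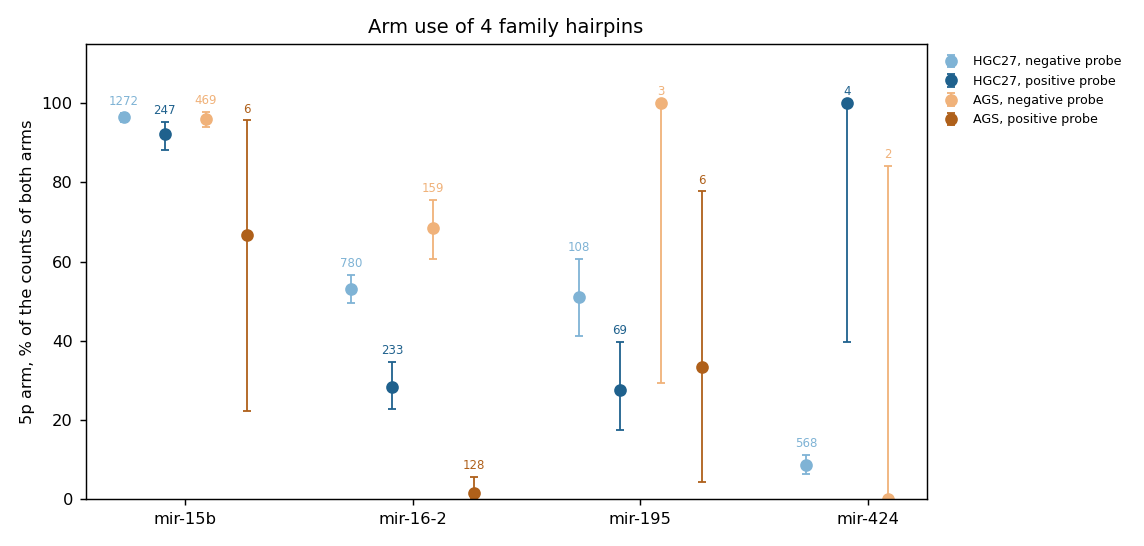
Share of the 5p arm in the counts of both arms (%) for 4 hairpins in each library. Bars are exact (Clopper-Pearson) 95% intervals and the small numbers are the counts of both arms. The 5p share of mir-16-2 was 1.56% in AGS with the positive probe, the share of mir-424 was 8.45% in HGC27 with the negative probe, and mir-424 has no point for AGS with the positive probe, where neither arm was listed.

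Of 15 related miRNAs, namely the opposite arms, miR-6838-5p and the miR-450 and miR-542 neighbours of miR-424, 8 were in the table and all 8 were listed in HGC27. There, 4 were lower with the positive probe, 1 was higher and 3 were neither, beside the 34.0% lower and 37.5% higher over all miRNAs given above. The lower call of miR-450a-1-3p rested on 2 counts against none, and the higher call, of miR-6838-5p, on 3 against none. miR-542-3p, from the same X-linked cluster as miR-424, had 167 and 22 counts, 7.22-fold lower (exact 95% CI 4.61 to 11.8). miR-450b-5p of that cluster had 46 counts with the negative and 79 with the positive probe, a log2 ratio of 0.82 that was not called. The neighbours of one cluster therefore did not move together between the probes. None of the miR-450 and miR-542 entries had a count in AGS.

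The comparison of the lines asks how the members differ between HGC27 and AGS at the same probe. With the negative probe, 8 of 8 members were higher in HGC27 by the deposited values, where 86.0% of all 615 listed miRNAs were higher. With the positive probe, 6 of 6 listed members were higher, where 75.3% of 684 miRNAs were higher. A share this near the background is not a result about the members. The median log2 ratio of miRNAs with at least 10 counts was 2.81 with the negative probe under the deposited scaling and 0.73 under TMM.

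The members did not all stand alike against that shift, and no test compared them by locus. With the negative probe, miR-15b-5p had a log2 ratio of HGC27 over AGS of 2.72, and this turned to -0.29 under TMM and -0.35 with DESeq2 size factors. miR-16-5p had 3.16, and 0.19 under TMM. miR-15a-5p had 2.81, on 16 and 3 counts, and 0.54 under TMM. These members from chromosomes 3 and 13 lay below the median of miRNAs with at least 10 counts under each of the 4 other scalings, and for miR-15b-5p the direction between the lines depended on the scaling.

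From chromosomes 17 and X, miR-195-5p and miR-424-3p stayed higher in HGC27 with the negative probe under each of the 4 other scalings. The other members from these chromosomes had no count in AGS, so no scaling could turn their direction. miR-195-5p had a log2 ratio of 4.32, and 2.14 under TMM. miR-424-3p had 7.49, and 5.73 under TMM, with a fold of 642 in the counts (exact 95% CI 177 to 5317) on 520 and 2 counts. Setting 3 counts in place of 0 in AGS, miR-424-5p was 39.5-fold higher in HGC27 (exact 95% lower bound 30.9) and miR-503-5p 25.5-fold higher (19.6). For miR-497-5p with its longer form this was 36.2-fold (28.2). The folds and bounds in this paragraph use the deposited scaling only and would differ under the others. Under TMM the median log2 ratio of miRNAs with at least 10 counts fell from 2.81 to 0.73 with the negative probe. The log2 ratio of miR-503-5p, 3.58, lay within the quartiles of miRNAs that reached 10 counts, 1.94 and 3.98. Counts were lower with the positive probe. There, set against 3 counts in the same way, miR-424-5p was 2.06-fold higher (exact 95% lower bound 1.02) and miR-503-5p 3.09-fold (1.82). For miR-497-5p with its longer form it was 14.95-fold (11.4).

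Both miR-15b-5p and miR-16-5p were higher in HGC27 than in AGS under all 5 scalings when the positive probe was used, whereas with the negative probe miR-15b-5p changed direction under 2 of them. miR-15b-5p was 88.1-fold higher in the counts (exact 95% CI 34.0 to 326), on 228 and 4 counts, with a log2 ratio of 5.39 and of 3.92 under TMM. miR-16-5p was 51.0-fold higher (13.6 to 430), on 66 and 2 counts, with log2 ratios of 4.64 and 2.93. The AGS values behind these folds are the near absence of both miRNAs described above. miR-195-5p was 14.7-fold higher (3.54 to 130), on 19 and 2 counts, with log2 ratios of 3.00 and 1.27. By the deposited values miR-503-5p (1.58) and miR-424-5p (1.00) had lower log2 ratios than miR-15b-5p and miR-16-5p, unlike with the negative probe. However, miR-503-5p had 6 counts against 0 and miR-424-5p had 4 against 0, so the 1 added to each value limits their ratios. The count intervals of miR-503-5p and miR-424-5p have no upper bound, so the order with the positive probe was not resolved.

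**Figure D4:**
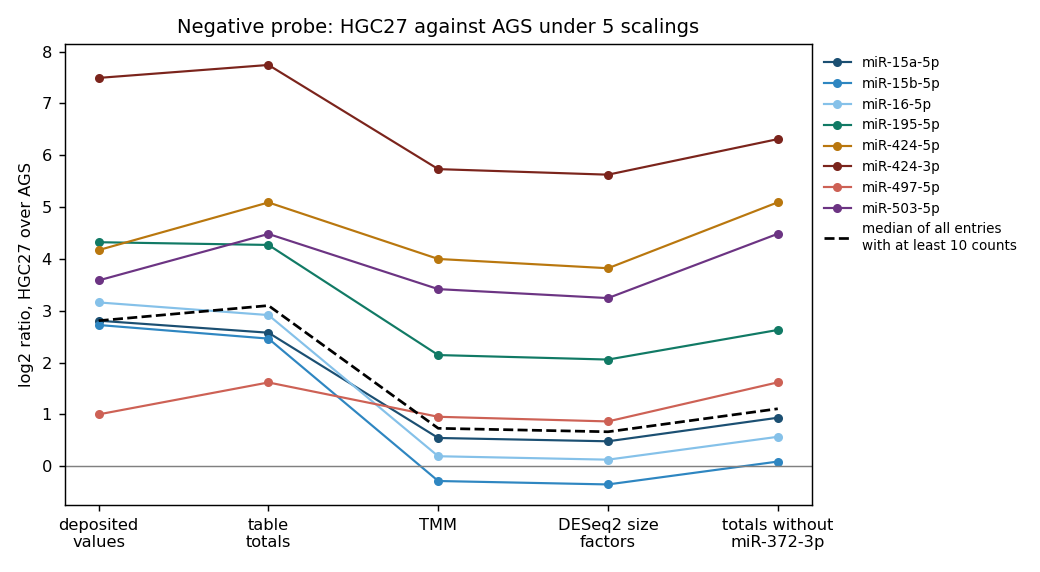
log2 ratio of HGC27 over AGS with the negative probe for the 8 members under 5 scalings, each with 1 added to the scaled value, and the dashed line marks the median over miRNAs that reached 10 counts. miR-15b-5p crosses 0 under TMM (-0.29) and DESeq2 size factors (-0.35), while miR-424-3p stays highest at 5.62 to 7.74.

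Shares within a library, where no scaling enters, were also compared. The miRNAs of the X-linked cluster (miR-424, miR-503, miR-450 and miR-542, 7 entries) made up 33.3% of their joint counts with miR-15b-5p and miR-16-5p in HGC27 with the negative probe (exact 95% CI 31.4 to 35.2), on 819 of 2461 counts. With the positive probe the share was 29.5% (25.2 to 34.1), on 123 of 417. In AGS with the negative probe it was 0.356% (0.0431 to 1.28), on 2 of 562. The HGC27 intervals overlap between the probes and lie above that of AGS with the negative probe. The makeup of the cluster counts in HGC27 differed, however. With the negative probe, miR-424-3p had 520 of the 819 and miR-450b-5p 46. With the positive probe, miR-424-3p had 0 of the 123 and miR-450b-5p 79. AGS with the positive probe had 0 of 6 counts, with an interval up to 45.9% that includes the HGC27 shares.

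In the fit over all 4 libraries with the probe as covariate, 0 of the 3 members tested were called between the lines by edgeR's quasi-likelihood test, where 29.9% of 271 miRNAs were called. Also at an unadjusted p under 0.05 there were 0. Limma-voom and the DESeq2 Wald test likewise called 0 of these 3 members. The log2 fold change of HGC27 over AGS was 1.46 (SE 1.41, adjusted p = 0.478 in edgeR) for miR-15b-5p, 1.17 (SE 1.22, adjusted p = 0.511 in edgeR) for miR-16-5p and 1.81 (SE 1.12, adjusted p = 0.239 in edgeR) for miR-195-5p. With library totals in place of TMM all 3 were called.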

How the data were processed

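miRNA libraries from RNA pull-down material were sequenced by the authors, 1 library per line and probe. The submitters' processing notes name cutadapt 1.9.3, Novoalign 3.02.12 and hg38, and the miRNA database release is not given in the sources used here. The authors counted tags per mature miRNA and deposited these counts, together with a normalized score, the TPM, which is the count scaled to 1000000 aligned miRNA tags and rounded to whole numbers. A miRNA with several precursors is repeated with 1 count, so 901 rows were collapsed to 843 entries, 273 of them predicted by the authors. The lowest listed count was 2, and a blank was taken as 0. The scaling recovered from both tables exceeded the table totals, which were 35.8% to 50.0% of it, and the reason is not given in the sources used here.

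Ratios used the deposited score with a pseudocount of 1. Fold intervals are exact conditional binomial intervals, and shares carry Clopper-Pearson intervals (95%). PCR duplicates cannot be told from separate molecules, so both cover counting error only. All entries were fitted with edgeR 4.0.16 (R 4.3.3), using TMM scaling, filterByExpr and Benjamini-Hochberg adjustment, with the line and the probe as terms. The SE given with each edgeR estimate was back-calculated, as the absolute log2 fold change over the square root of the F statistic. The fit was tested on simulated data with 200 entries changed 8-fold. The alternatives were other scalings, pseudocounts and filters, DESeq2 1.42.0 and limma 3.58.1.

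Named were all members, the 15 related miRNAs, predicted entries with the family seed or a member's sequence, the 5 miRNAs nearest in pattern to miR-16-5p and miR-424-5p, and the dominant miRNA of each line. Members and lists were chosen with earlier results of these data known.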

Additional observations from a re-analysis of the deposited data

Results flagged for a closer look

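miR-16-2-3p moved in opposite directions between the probes in the 2 lines. Its log2 ratio was -1.06 in HGC27 (366 and 167 counts, negative and positive probe) and 1.91 in AGS (50 and 126), a difference of 2.96, AGS minus HGC27. Under the table totals, TMM, DESeq2 size factors and totals without miR-372-3p it stayed between -0.98 and -0.86 in HGC27 and between 0.58 and 2.22 in AGS. The lower call in HGC27 was thus lost under each of these scalings, and the higher call in AGS with totals without miR-372-3p. Both deposited ratios lay within the quartiles of miRNAs with at least 10 counts, -1.24 to 1.13 in HGC27 and -1.26 to 2.00 in AGS. Over all listed miRNAs, 34.0% were called lower in HGC27 and 39.4% higher in AGS. The difference between the lines was not tested, since each line had 1 library per probe.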

How the results depend on the processing

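The direction of the probe ratios held for every called member under all 4 other scalings and both other pseudocounts, while the number of calls moved. For miR-424-3p and miR-497-5p in HGC27 the direction could not change, as neither had a count with the positive probe. In HGC27, 4 in place of 7 members were lower with a pseudocount of 10. In AGS, 4 in place of 2 were lower under TMM, 4 with DESeq2 size factors and 5 with totals without miR-372-3p. The added calls were of miR-15a-5p, miR-424-3p and, in the last of these, miR-195-5p. Each had at most 3 counts in either library and a deposited value of 0 in both, so its ratio by those values was 1. Between the lines with the negative probe, 4 in place of 8 members were higher in HGC27 under TMM, 4 with DESeq2 size factors and 5 with totals without miR-372-3p, and miR-15b-5p turned to -0.29 and -0.35 under the first pair of these. With the positive probe, 2 in place of 6 were higher with a pseudocount of 10 and 3 with at least 10 counts in a library, where fewer members were left. For the other moves the cause was not tested. The 5p family share in AGS with the negative probe was 0.0999% with miR-372-3p left out, by construction.

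The 19 edgeR calls between the probes became 32 with DESeq2 size factors in edgeR, 53 in DESeq2 (58 adjusted p not given), and 0 with library totals, no filter, at least 10 counts in every library, limma-voom or no covariate, with 52, 66, 16, 72 and 17 at an unadjusted p under 0.05. The 81 calls between the lines became 169 with library totals, 15 with at least 10 counts in every library, and 0 with no filter, where 95 had an unadjusted p under 0.05. Without the probe covariate the line estimates turned to -0.44 for miR-15b-5p and -0.0063 for miR-16-5p. The miR-424 arm share could not be computed from deposited values in AGS, where they were 0. No paired analysis was possible because there was 1 library a group, with no replicate numbers in the labels, other than the fit with the line as a term, which compares the probes within lines. By depth, 3 counts were 0.418 to 1.09 TPM, and in AGS with the positive probe no 5p member exceeded 4 counts.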

Other observations

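Among 209 other miRNAs with at least 100 counts in all, the 5 nearest to miR-16-5p in pattern over the 4 libraries, by Euclidean distance of the centred log2 of the deposited value + 1, were miR-320a-3p (distance 0.484), miR-17-5p (0.726), miR-15b-5p (0.736), miR-20a-5p (0.79) and miR-93-5p (0.95). miR-17-5p and miR-20a-5p are members of the miR-17-92 cluster, and miR-93-5p of its paralog. Those nearest to miR-424-5p, among 210, were a predicted entry (0.689), miR-19b-3p (0.82), miR-23a-3p (0.986), miR-455-5p (1.14) and miR-152-3p (1.18). A pattern over 4 libraries is a description, as depth and scaling are shared by all miRNAs.

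miR-103a-3p and miR-107, chosen after their values were seen, carry AGCAGCA 1 base earlier than the family, at their 5′ end. miR-103a-3p had 57783 and 3863 counts in HGC27 and 12184 and 802 in AGS, for the negative and positive probe, with log2 ratios of -3.83 and -3.17. miR-107 had 562 and 90 counts in HGC27 and 75 and 4 in AGS, with log2 ratios of -2.51 and -2.46. Counting identical sequences once, 10 sequences held AGCAGCA within bases 1 to 8, of which 7 were lower and 1 was higher with the positive probe in HGC27, and 4 of the 6 listed in AGS were lower. Over all listed miRNAs 34.0% were lower in HGC27 and 22.7% in AGS, and 6 of the 10 sequences are members already counted in the report.

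Matches to bases 2 to 8 of the members were looked for in the 1101 bases of the FN1 3′-UTR in GENCODE 29, on both strands. The seed shared by 6 members was searched as TGCTGCT. For miR-503-5p the search was for CGCTGCT. For miR-424-3p it was for ACGTTTT. There were 0 for each member on either strand. Of 568 distinct known miRNA sequences in the table, 7.22% had such a match on the transcript strand and 7.75% on the opposite strand. The absence says only that these letters are not in this window.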
